A study of Homo sapiens with 36 samples.

Results

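The 10 genes described here are the members of the MYC, MAX and MXD network that were followed in these libraries: MYC, MAX, MXD1, MXD3, MXD4, MXI1, MNT, MGA, MLX and MLXIP. They were picked by symbol from a named list, and all 10 were found among the 58302 Ensembl gene IDs counted, each with 1 ID. All 10 passed the filter on low counts in each of the 3 lines. The study sequenced RNA from 36 libraries of mantle cell lymphoma, grown as the established lines UPN-1, MINO and JEKO. Cells were kept in vehicle (DMSO) or in GS716054, which targets KDM5, a family of lysine demethylases that take methyl groups from lysine 4 of histone H3. Cells were collected at 24 h or 72 h, which gave 12 groups of 3 biological replicates, and no group carried a genetic change or a further agent per the labels. Each line descends from 1 tumour, so a difference among lines is a difference among 3 lines and not among kinds of lymphoma. The question here was how GS716054 changed each member against DMSO in each line at each time, and how the members stood in untreated lines.

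The network is a set of basic helix-loop-helix leucine zipper proteins that bind DNA as pairs. MAX is the shared partner, MYC with MAX activates genes at the E-box CACGTG, and the MXD proteins, MNT and MGA with MAX compete for the same sites and repress. MLX is a second shared partner, which also binds MLXIP, also known as MondoA, a sensor of glucose metabolites that activates TXNIP and ARRDC4. In B-cell lymphomas MYC drives ribosome production and cell growth, and B-cell factors such as PRDM1 are known to repress it.

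The E-box itself lies in the promoters of some of these genes, which is why the sequences around it are shown. RefSeq (GRCh38.p14) gave 14 promoter entries for 9 of the 10 members, with MYC not among them. The letters CACGTG, which read the same on both strands, occurred in the 250 bases before the start in 3 of the 14 entries, those of MXD4, MNT and MLX. They occurred in 6.34% of the same stretch in all 35116 promoters of the table. The windows run 5′ to 3′ on the gene's strand, with the E-box in capitals. The first lies at chr4:2262315-2262359 (minus strand), the second at chr17:2401221-2401280 (minus) and the third at chr17:42567023-42567071 (plus).
MXD4: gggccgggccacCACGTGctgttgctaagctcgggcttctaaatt
MNT: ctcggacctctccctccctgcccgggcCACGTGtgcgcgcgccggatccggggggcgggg
MLX: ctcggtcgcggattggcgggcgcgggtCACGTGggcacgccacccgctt
The E-box began 238 bases before the start in MXD4, 193 in MNT and 50 in MLX. A match of letters is a description of these windows and not a binding site.

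Gene reads ranged from 8784815 to 14970876 per library. Levels are given as CPM, which are gene counts divided by library size, after TMM scaling over all 36 libraries, so that lines can be set side by side. No member was at 0 in any library, and the lowest raw count of a member was 24, for MXD1. All 8 B-cell markers were detected, with a summed level from 2695 to 8289 CPM. The 5 T-cell markers summed to 1.32 to 32.0 CPM and the 5 myeloid markers to at most 6.58 CPM, with CD2 and MPO at 0 in all 36 libraries, and the 6 epithelial and stromal markers summed to 5.67 to 38.6 CPM. In a bulk sample, fewer cells with a transcript and less of it per cell cannot be told apart. A call means that edgeR's quasi-likelihood test gave a p under 0.05 once adjusted (Benjamini-Hochberg) across every gene in the fit, and adjusted p values are from that test unless another is named.

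In cells given DMSO for 24 h, MYC, MNT and MLX differed in UPN-1 from both other lines, and MYC by the most. MYC (ENSG00000136997, chromosome 8, 127735434 to 127742951, GRCh38) stood at 480, 536 and 500 CPM in the JEKO libraries, 510, 546 and 468 in MINO and 70.1, 58.8 and 101.5 in UPN-1. JEKO and MINO overlapped, and every UPN-1 library was below all of theirs. The log2 difference of UPN-1 was -2.72 (SE 0.17) against JEKO and -2.72 (SE 0.17) against MINO, a level 6.57-fold and 6.60-fold lower (adjusted p = 3.44e-14 and 2.06e-14). Between MINO and JEKO the difference was 0.01, with a 95% interval from -0.31 to 0.33.

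The other MYC genes were low in UPN-1 too. MYCN, which is best known from nerve cells, had at most 5.90 CPM in any library. It was at 0 in all 6 UPN-1 libraries at 24 h and averaged only 0.0852 CPM in JEKO in DMSO at 24 h. In MINO it averaged 0.576 CPM in DMSO and 1.55 in GS716054 at 24 h, and 1.43 and 3.02 at 72 h, with overlap at both times. MYCL had 3.30 ± 0.40 CPM (SD, n = 3) for JEKO, 1.45 ± 1.11 for MINO and 0.217 ± 0.072 for UPN-1. MLXIPL, the relative of MLXIP that is known from liver, was at 0 in 33 of the 36 libraries.

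Among the repressive partners, UPN-1 had less MNT and both MINO and UPN-1 had more MGA than JEKO. MNT, a broadly expressed MYC antagonist, stood at 25.3, 28.99 and 26.99 CPM in the JEKO libraries, 27.4, 33.2 and 32.9 in MINO and 16.6, 21.2 and 19.5 in UPN-1. All UPN-1 libraries were below all others (log2 difference -0.51, SE 0.15, adjusted p = 0.00766 against JEKO, and -0.71, SE 0.15, adjusted p = 0.00033 against MINO), and the first of these calls was lost without UPN-1 replicate 1 (adjusted p = 0.0567). MGA, which also belongs to the PRC1.6 complex, stood at 47.75, 51.0 and 47.2 CPM in the JEKO libraries, 79.3, 77.8 and 74.1 in MINO and 77.2, 71.5 and 85.8 in UPN-1. JEKO was below both others with no overlap (log2 differences 0.66 and 0.68, SE 0.16 each, adjusted p = 0.000795 and 0.000609), and MINO and UPN-1 overlapped.

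MXD4 (ENSG00000123933, chromosome 4, 2247432 to 2262109, minus strand) was lowest in JEKO. The libraries held 29.6, 23.7 and 27.7 CPM for JEKO, 32.5, 39.97 and 39.4 for MINO and 46.0, 42.7 and 47.3 for UPN-1. The 3 lines did not overlap. Against JEKO the log2 difference was 0.47 (SE 0.17, adjusted p = 0.0198) for MINO and 0.75 (SE 0.16, adjusted p = 0.000377) for UPN-1, and the step from MINO to UPN-1 did not pass the test (0.28, SE 0.16, adjusted p = 0.167). The first of these calls was lost without JEKO replicate 2 (adjusted p = 0.0998), MINO replicate 2 (0.0723) or MINO replicate 3 (0.0657).

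On the MLX side, UPN-1 had more MLX, with 118, 118 and 111.5 CPM against 73.0, 72.1 and 77.7 in JEKO and 76.3, 74.1 and 70.0 in MINO. Its libraries were above all others (log2 differences 0.64 and 0.65, SE 0.18 each, adjusted p = 0.00371 and 0.00314). MLXIP was called lower in UPN-1 than in JEKO by -0.38 (SE 0.14, adjusted p = 0.0246), but the libraries overlapped, and the call was lost without JEKO replicate 2 or 3 or UPN-1 replicate 1 or 2 (adjusted p from 0.0554 to 0.137). ARRDC4, an arrestin-like target of MLXIP and MLX, had no read in any of the 12 MINO libraries, where a count of 0 allows at most 3 counts, while JEKO held 3.99 ± 1.59 CPM and UPN-1 2.80 ± 0.85. TXNIP, the thioredoxin inhibitor that is the other target, was detected in all 36 libraries.

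In all, 2 members were called between MINO and JEKO, 6 between UPN-1 and JEKO and 3 between UPN-1 and MINO. The 3 lines differed in a large part of the genome, with 48% of all tested genes called between MINO and JEKO, 44.9% between UPN-1 and JEKO and 44.4% between UPN-1 and MINO. The shares of the 10 members, 2, 6 and 3 of 10 in the same order, are below, above and below these values, and nothing is read from them. MAX, MXD1, MXD3 and MXI1 were called between no pair of lines. For MAX the 3 lines held 71.4 to 104 CPM per library, and for MXD3 120 to 157 CPM.

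Per kilobase of exon, MYC led in JEKO and MINO and not in UPN-1. The length of a gene was that of all its annotated exons merged, which is 6109 bases for MYC. The transcripts in use were not measured, so ranks between genes depend on this choice of length. In DMSO at 24 h, MYC had 82.7 ± 4.70 CPM per kb in JEKO and 83.1 ± 6.35 in MINO, against 29.6 ± 3.92 and 30.1 ± 2.41 for MXD3, the next member. In UPN-1, MXD3 (30.002 ± 1.03) and MLX (27.2 ± 0.85) stood above MAX (13.9 ± 0.31) and MYC (12.6 ± 3.62), and the last pair lay within their spread. MXD1, which is known from differentiating cells, was the lowest member in all 3 lines, at 0.525 to 0.751 CPM per kb. MXD3 shares 24.2% of its exon length with PRELID1 on the opposite strand and 19.5% with RAB24 on its own, and on the opposite strand MLX shares 18.2% with PSMC3IP, MAX 16.1% with FNTB and others and MNT 12.2% with ENSG00000262456, so their levels depend on how shared reads were counted, which is not given in the sources used here.

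**Figure D1:**
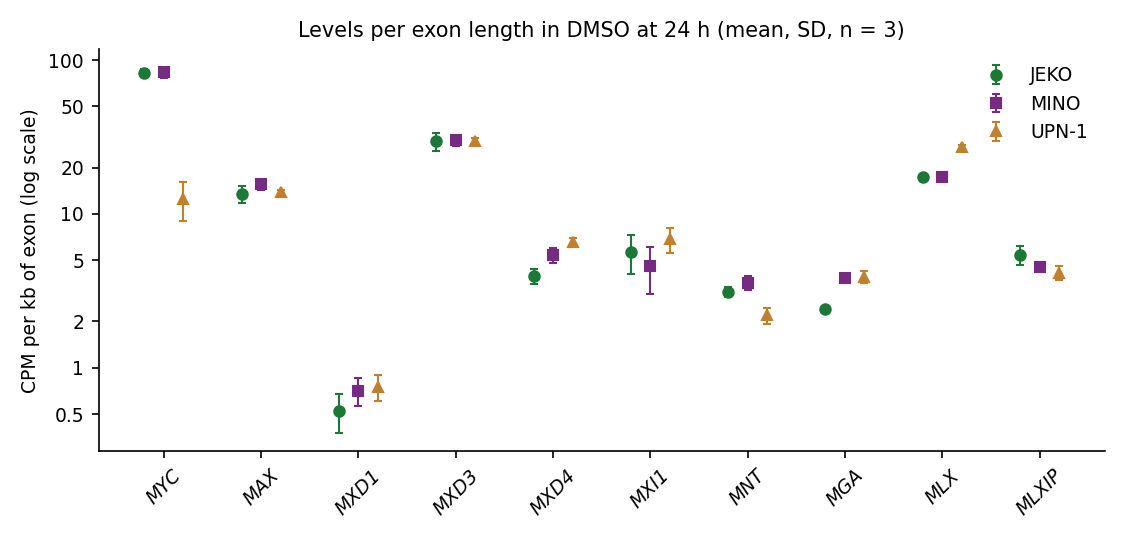
Level of each member per kilobase of exon (log axis) in the DMSO libraries at 24 h, with points at the mean and bars of 1 SD over 3 libraries of JEKO, MINO and UPN-1. MYC lies near 83 in JEKO and MINO and at 12.6 in UPN-1, and MXD1 is lowest in each line.

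A list of 40 genes that MYC is known to activate, most of them for nucleoli, ribosomes, translation and metabolism, had members on both sides in UPN-1. Against JEKO, 12 of the 40 were called higher and 5 lower (44.9% of all genes called in either direction), with a median log2 difference of 0.13 beside -0.04 over all genes. Against MINO, 12 were higher and 4 lower (44.4% of all genes), with a median of 0.30 beside 0.03. The same list gave 6 higher and 7 lower between MINO and JEKO (48% of all genes), where MYC was not called. All 3 of these shares of the list are below those of all genes.

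GS716054 lowered MYC in MINO at both times. At 24 h the 3 DMSO libraries held 510, 546 and 468 CPM and the 3 GS716054 libraries 179, 171 and 180. At 72 h they held 625, 804 and 687 CPM in DMSO and 189, 239 and 232 in GS716054. The groups did not overlap at either time.
The log2 fold change was -1.55 at 24 h and -1.69 at 72 h, each with an SE of 0.14 (adjusted p = 0.000724 and 7.37e-05), which is 2.93-fold and 3.23-fold lower. MYC was 1 of 2 members called at each time, in a line where 2.39% of all tested genes were called at 24 h and 5.56% at 72 h. The effects at the 2 times did not differ by the test (difference -0.14, SE 0.19, adjusted p = 0.97), and no member was called in that comparison in MINO, where 0.0133% of genes were, nor in JEKO or UPN-1, where 0% were. By an unadjusted p under 0.05, 299 of 16690 genes passed in JEKO and 232 of 15248 in UPN-1. Both are smaller shares than the 0.05 expected where no gene changes, so nothing is read from them. DESeq2 called 1 gene in each line.

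MYC did not fall in JEKO or UPN-1. In JEKO the libraries held 480, 536 and 500 CPM in DMSO and 516, 563 and 476 in GS716054 at 24 h, and 523, 664 and 534 against 605, 705 and 582 at 72 h. The groups overlapped at both times. The log2 fold changes were 0.02 (95% interval -0.31 to 0.35, adjusted p = 1) and 0.14 (-0.19 to 0.47, adjusted p = 0.922), and both intervals leave out the size seen in MINO.
In UPN-1 the MYC libraries held 70.1, 58.8 and 101.5 CPM in DMSO and 64.9, 64.6 and 91.5 in GS716054 at 24 h, where they overlapped (log2 fold change -0.07, 95% interval -0.44 to 0.30). At 72 h they held 71.1, 74.7 and 71.5 CPM in DMSO and 78.2, 93.0 and 89.2 in GS716054, with no overlap. The log2 fold change was 0.28 (95% interval -0.09 to 0.65, adjusted p = 0.861). With the replicate number within each time as a block it was 0.27 (SE 0.07, adjusted p = 0.023), which is a call in the opposite direction to MINO. That fit called 7.47% of all genes.

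The difference among the lines was itself tested in a fit of all 36 libraries. MYC was the 1 member called at each time (adjusted p = 0.000497 at 24 h and 4.91e-06 at 72 h), where 0.106% of all tested genes were called at 24 h and 1.01% at 72 h. The MINO effect was lower than the JEKO effect by a log2 difference of -1.56 (95% interval -2.02 to -1.10) at 24 h and -1.82 (-2.28 to -1.36) at 72 h. It was lower than the UPN-1 effect by -1.46 (-1.93 to -0.999) and -1.94 (-2.40 to -1.48).

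MXD4, an MXD repressor, rose in MINO at both times and in UPN-1 at 72 h. In MINO the libraries went from 32.5, 39.97 and 39.4 CPM in DMSO to 69.9, 99.5 and 75.9 in GS716054 at 24 h, and from 47.1, 43.9 and 54.1 to 104, 149 and 129.5 at 72 h. The groups did not overlap at either time. The log2 fold change was 1.10 at 24 h and 1.38 at 72 h, each with an SE of 0.17 (adjusted p = 0.00862 and 0.000943), or 2.15-fold and 2.61-fold higher. The call at 24 h was lost without DMSO replicate 1 (adjusted p = 0.0607) or GS716054 replicate 2 (0.0547).

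In UPN-1, MXD4 was the 1 member called at 72 h, where 0.334% of all tested genes were called. The libraries held 58.7, 64.5 and 52.7 CPM in DMSO and 79.9, 98.4 and 82.2 in GS716054, again with no overlap (log2 fold change 0.58, SE 0.11, adjusted p = 0.041). The call was lost without any 1 of 5 of the 6 libraries, all but DMSO replicate 2, with adjusted p values from 0.0782 to 0.172. At 24 h the libraries held 46.0, 42.7 and 47.3 CPM in DMSO and 56.7, 52.4 and 55.7 in GS716054, without overlap and without a call (0.27, SE 0.12, adjusted p = 1). No member was called in UPN-1 at 24 h, where 0.0262% of genes were. At that time 662 of 16690 genes in JEKO and 577 of 15248 in UPN-1 had an unadjusted p under 0.05. These too are smaller shares than the 0.05 expected where no gene changes.

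In JEKO the MXD4 libraries did not overlap either. They held 29.6, 23.7 and 27.7 CPM in DMSO and 52.8, 40.4 and 46.8 in GS716054 at 24 h, and 97.1, 77.8 and 59.0 against 142, 121 and 113 at 72 h. The log2 fold changes, 0.78 (SE 0.18) and 0.69 (SE 0.18), were larger than in UPN-1 but missed the threshold (adjusted p = 0.486 and 0.16), in comparisons that called 0.018% and 0.3% of all genes and no member. DESeq2 called MXD4 at both times (adjusted p = 0.0461 and 0.0335), with 0.181% and 1.26% of genes called. With the replicate number within each time as a block, MXD4 was called at 24 h (0.77, adjusted p = 0.0243), where 15 of 16690 genes were. By that fit it was also called at 72 h (0.71, SE 0.11, adjusted p = 0.00558), where 3.34% of genes were.

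For MXD4, all treated libraries lay above all DMSO libraries of the same line and time in 6 of 6 comparisons. Of all tested genes, 7.03% did so in JEKO at 24 h and 6.51% at 72 h, 19.9% and 12.4% in MINO, and 7.82% and 5.15% in UPN-1. The size of the effect did not pass the test of a difference among lines (adjusted p = 0.214 at 24 h and 0.0938 at 72 h). It did so with the block within each time (adjusted p = 0.00358 and 0.0013), beside 5.74% and 9.78% of all genes. Against UPN-1, the MINO effect was larger by 0.85 (95% interval 0.39 to 1.32) at 24 h and 0.83 (0.37 to 1.30) at 72 h, with adjusted p = 0.11 and 0.0761. Against JEKO at 72 h it was larger by 0.72 (95% interval 0.26 to 1.18), with adjusted p = 0.119. A different block, the replicate number of each line shared over both times, gave adjusted p = 0.0205 and 0.0176 against UPN-1 and 0.0349 against JEKO. Same-numbered DMSO libraries of 24 h and 72 h correlated weakly (-0.0655 to 0.169) and did not pair in MINO.

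**Figure D2:**
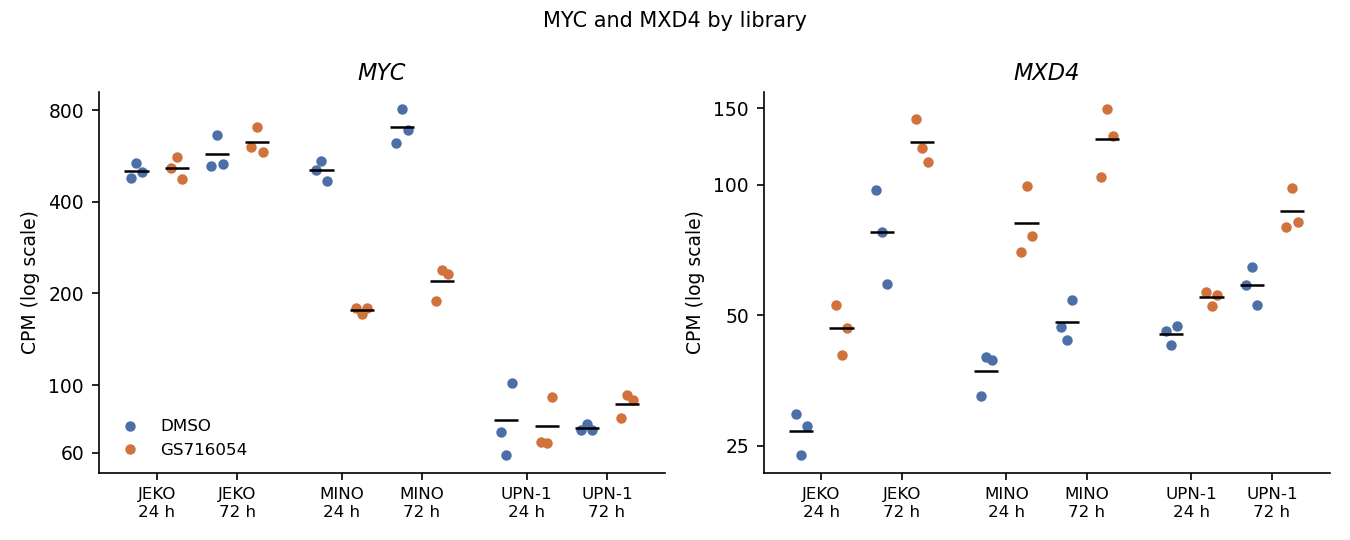
MYC and MXD4 in each of the 36 libraries (CPM, log axis) by line and time, with DMSO in blue, GS716054 in orange and a bar at each group mean. MYC falls below its DMSO libraries in MINO alone, while every treated MXD4 library lies above the DMSO libraries of its line and time.

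The ratio of MYC to MXD4 RNA was lower under GS716054 in MINO at both times, and on average in the other lines too. Per kilobase of exon, MYC exceeded MXD4 by 15.5 ± 2.13 times in DMSO and 2.50 ± 0.49 times in GS716054 at 24 h, and by 16.6 ± 3.48 and 1.95 ± 0.13 times at 72 h (SD, n = 3). In JEKO the ratio went from 21.3 ± 3.70 to 12.7 ± 2.59 at 24 h and from 8.62 ± 2.24 to 5.72 ± 0.87 at 72 h. In UPN-1 it went from 1.89 ± 0.46 to 1.51 ± 0.30 at 24 h and from 1.397 ± 0.12 to 1.13 ± 0.08 at 72 h. No test of the ratio was run. MYC made up 63.2% ± 2.12 of the summed RNA per kilobase of MYC, MXD1, MXD3, MXD4, MXI1, MNT and MGA in MINO under DMSO at 24 h and 37.3% ± 2.2003 under GS716054, against 64.6% ± 1.196 and 64.9% ± 4.62 in JEKO. These are shares of RNA, not of protein, and the size of the ratios and shares depends on the merged exon lengths.

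The remaining 8 members were not called against DMSO in any of the 6 comparisons. MAX, the partner on which the others depend, had log2 fold changes from -0.04 to 0.17, and its lowest and highest libraries in the series were 66.0 and 114 CPM. MNT ranged from -0.07 to 0.19, MLXIP from -0.25 to 0.07 and MXD3 from -0.28 to -0.03. MXD1 had only 2.02 to 21.0 CPM per library, and its 95% interval in MINO at 24 h ran from -1.26 to 0.89.

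Some of these 8 passed once the replicate number within each time was a block. MGA in UPN-1 held 77.2, 71.5 and 85.8 CPM in DMSO and 99.5, 99.9 and 131 in GS716054 at 24 h, with no overlap, and 67.1, 83.4 and 72.3 against 72.8, 90.9 and 116 at 72 h, with overlap. Its blocked log2 fold changes were 0.48 (SE 0.09, adjusted p = 0.00742) and 0.33 (SE 0.09, adjusted p = 0.0284), with 1.5% and 7.47% of all genes called by that fit in UPN-1; without the block they were 0.49 (adjusted p = 0.938) and 0.34 (0.671). In MINO, MGA had -0.16 and -0.24 without a call, and the difference among lines did not pass the test (adjusted p = 0.508 and 0.432).
MLX fell from 76.3, 74.1 and 70.0 CPM to 54.3, 56.2 and 55.5 in MINO at 24 h by the blocked fit (-0.44, SE 0.12, adjusted p = 0.0295; 0.279 without the block), in which 15.8% of all genes were called. In UPN-1 at 72 h the blocked value for MLX was -0.29 (SE 0.07, adjusted p = 0.0186; 0.726 without the block).

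**Figure D3:**
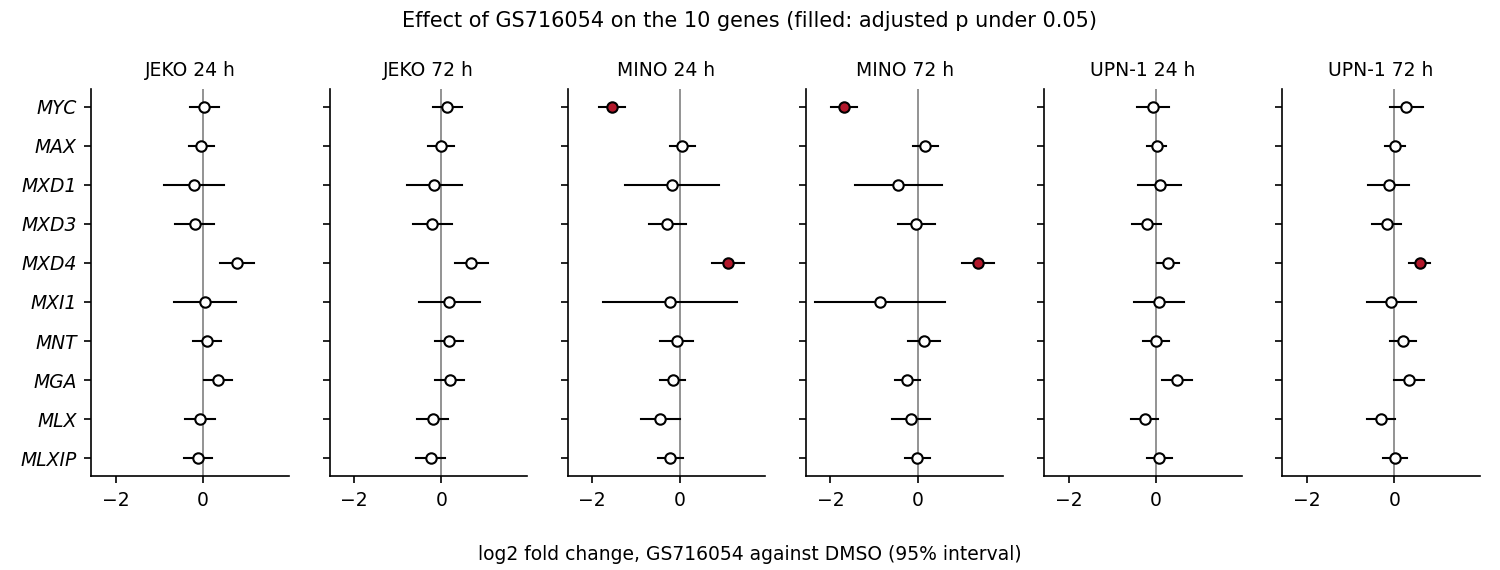
Log2 fold change of each member, GS716054 against DMSO, with its 95% interval, in the 6 comparisons of line and time; filled points passed an adjusted p of 0.05 without a block. MYC in MINO and MXD4 in MINO and in UPN-1 at 72 h are filled.

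MXI1, an MXD-type repressor whose RNA is known to rise in low oxygen, differed more between replicates than between treatments at 72 h. In MINO at 72 h its libraries (ENSG00000119950, chromosome 10, 110207605 to 110287365) held 36.9, 239 and 39.3 CPM in DMSO and 26.6, 117 and 29.6 in GS716054. Replicate 2 was highest in both arms, and it was highest in both arms of JEKO (76.3 and 83.1 CPM) and UPN-1 (108 and 96.8 CPM) as well. The groups overlapped, and without the block the log2 fold change was -0.87 with a 95% interval from -2.35 to 0.62.
Within each replicate number the treated MINO library was the lower one, and with the block the log2 fold change was -0.67 (SE 0.14, adjusted p = 0.00472), in a fit that called 20.2% of all genes. With the same block the MXI1 effect at 72 h differed among lines (adjusted p = 0.00276, and 0.858 without it), where 9.78% of all genes were called.

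TXNIP followed the same replicates. At 72 h in MINO it held 94.3, 267 and 101.5 CPM in DMSO and 156, 759 and 255 in GS716054, with replicate 2 highest in both arms, as in JEKO (240 and 242 CPM) and UPN-1 (247 and 286 CPM). In MINO each treated library was above the DMSO library of its number: 1.32 without the block (SE 0.49, adjusted p = 0.129) and 1.18 with it (SE 0.14, adjusted p = 7.45e-05). By the blocked fit TXNIP was also higher in MINO at 24 h (0.44, SE 0.14, adjusted p = 0.048) and in UPN-1 at 72 h (0.51, SE 0.09, adjusted p = 0.000854). MLXIP itself had -0.01 in MINO at 72 h (adjusted p = 0.976). What set replicate 2 at 72 h apart was not tested.

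**Figure D4:**
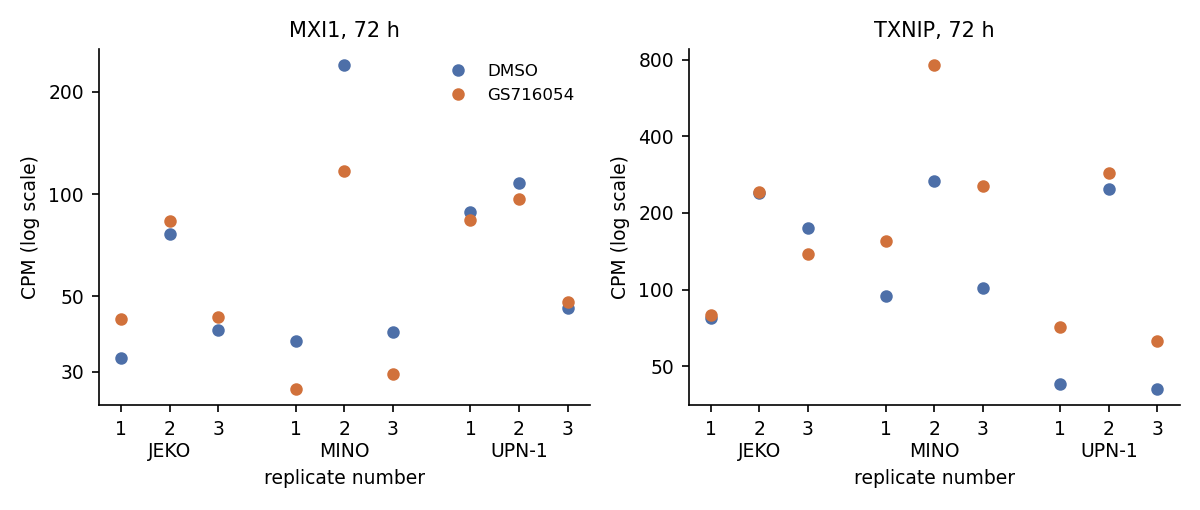
MXI1 and TXNIP at 72 h (CPM, log axis) by replicate number within each line, DMSO in blue and GS716054 in orange. Replicate 2 is the highest in both arms of each line, up to 239 CPM for MXI1 and 759 CPM for TXNIP, both in MINO.

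Of the 40 genes that MYC is known to activate, 4 were called lower in MINO at 24 h and 1 at 72 h, and 0 higher. Of all tested genes, 2.39% were called at 24 h and 5.56% at 72 h, so 1 of 40 at 72 h is below the share of all genes. At 24 h the median log2 fold change of the list was -0.60 beside 0.01 over all genes, and 39 of the 40 had a value below 0. In 34 of the 40 all treated libraries lay below all DMSO libraries, as they did in 15.2% of all tested genes. The 4 genes called were MYBBP1A (-1.09, SE 0.24, adjusted p = 0.0354) and NCL (-0.82, SE 0.18, adjusted p = 0.0371), both nucleolar proteins of ribosome production, GNL3 (-0.79, SE 0.17, adjusted p = 0.0294), the nucleolar protein nucleostemin, and POLR1B (-0.72, SE 0.17, adjusted p = 0.0447), a subunit of RNA polymerase I. With the block within each time 29 were lower and 0 higher, where 15.8% of all genes were called.
NCL shows the scale of the change: its libraries held 1319, 1167 and 1327 CPM in DMSO and 801, 649 and 747 in GS716054, with no overlap. At 72 h the median was -0.33 beside -0.03, and the test called FBL alone, the rRNA methylase fibrillarin (-0.79, SE 0.14, adjusted p = 0.0075), from 240, 342 and 260 CPM to 151, 158 and 182. With the block 17 were lower and 0 higher, where 20.2% of all genes were called.

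In JEKO and UPN-1 no gene of that list was called in any of the 4 comparisons. Of all tested genes, 0.018% and 0.3% were called in JEKO and 0.0262% and 0.334% in UPN-1, at 24 h and 72 h. With so few genes called, nothing is read from the empty count. The medians of the list were -0.05 and 0.13 in JEKO and 0.03 and -0.05 in UPN-1, beside -0.01, 0.00, 0.00 and 0.00 over all genes. With the block CCND2 was higher in JEKO at 72 h, 1 gene was higher in UPN-1 at 24 h, and 1 was higher and 1 lower in UPN-1 at 72 h, where 3.34%, 1.5% and 7.47% of all genes were called. By the joint test of a difference of the effect among the 3 lines, 0 of the 40 were called at either time, and with the block 22 were at 24 h and 15 at 72 h (5.74% and 9.78% of all genes). Between pairs of lines without the block, PPAT, an enzyme of purine synthesis, had a lower effect in MINO than in UPN-1 at 24 h (log2 difference -0.97, 95% interval -1.39 to -0.56, adjusted p = 0.0305), 1 of 41 genes called of 17980. The 7 genes that MYC is known to repress, among them the cell cycle inhibitor CDKN1A, gave no call in any of the 6 comparisons. Their median log2 fold changes at 24 h and 72 h were 0.31 and -0.07 in JEKO, 0.31 and 0.79 in MINO, and 0.23 and 0.22 in UPN-1, where 6 of the 7 could be tested. With the block 3 were higher in MINO at each time (15.8% and 20.2% of all genes called), 1 in UPN-1 at 24 h (1.5%) and 3 at 72 h (7.47%), and none lower.

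**Figure D5:**
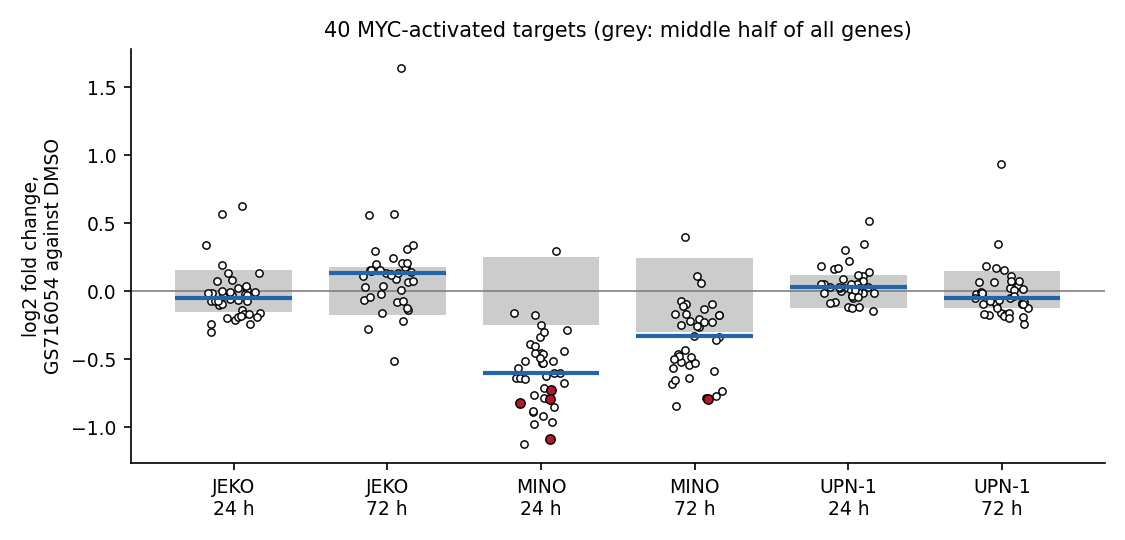
Log2 fold changes, GS716054 against DMSO, of the 40 genes that MYC activates, by line and time; filled points passed an adjusted p of 0.05, blue bars are the list's medians and grey boxes run from the lower to the upper quartile of all tested genes. The MINO medians, -0.60 and -0.33, lie below the boxes, and those of the other lines lie inside.

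Few other genes around the network were called in the 6 comparisons. In MINO at 24 h, TFAP4, an E-box factor that MYC is known to induce, fell from 44.1, 43.9 and 46.3 CPM to 29.3, 24.9 and 28.1 (-0.74, SE 0.14, adjusted p = 0.0222), the 1 called of 12 tested other E-box factors. Among 9 genes of MYC protein turnover, USP36, a nucleolar enzyme that removes ubiquitin from MYC, was lower (-0.76, SE 0.15, adjusted p = 0.0232) and GSK3B, the kinase that marks MYC for degradation, higher (0.54, SE 0.11, adjusted p = 0.0255). At 72 h in MINO, USF1, another E-box factor, was higher (0.49, SE 0.13, adjusted p = 0.0379). None of 14 MYC cofactors, 15 genes of the SIN3 corepressor, through which MXD proteins act, or 9 further genes of PRC1.6 was called in any of the 6 comparisons. Of all tested genes, 2.39% were called in MINO at 24 h and 5.56% at 72 h, and 0.018% to 0.334% in JEKO and UPN-1. With shares this low, nothing is read from the empty counts.

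Near MYC on chromosome 8, PVT1, a long noncoding RNA, did not follow it. Its MINO libraries held 10.2, 21.8 and 12.7 CPM in DMSO and 11.5, 14.4 and 12.8 in GS716054 at 24 h, and 23.8, 29.5 and 20.9 against 20.7, 21.9 and 15.2 at 72 h. The groups overlapped at both times (-0.24, SE 0.26, and -0.37, SE 0.25, adjusted p = 0.673 and 0.425). CASC11, which shares exons with MYC on the opposite strand, had 0 to 1.26 CPM and was not tested in MINO. Among 8 B-cell regulators, PRDM1, a repressor that promotes plasma cell differentiation, was called higher in JEKO at 72 h (1.34, SE 0.23, adjusted p = 0.0225). Its libraries went from 3.33, 2.85 and 4.73 CPM to 10.7, 7.73 and 9.22, in a comparison that called 0.3% of all genes. No regulator was called in MINO, where 2.39% of all genes were at 24 h and 5.56% at 72 h.

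Marker levels moved with the treatment. In MINO the B-cell markers summed to 4593 to 5532 CPM in DMSO and 7050 to 7286 in GS716054 at 24 h, and to 4700.1 to 6346 and 6619 to 8289 at 72 h. The T-cell markers summed to 5.55 to 7.28 CPM in DMSO and 10.8 to 22.1 in GS716054 at 24 h, and to 9.54 to 16.9 and 14.96 to 32.0 at 72 h. Of the 8 B-cell markers, CD22, CD79B and MS4A1 were called higher at 24 h and CD79A and MS4A1 at 72 h. Of all genes, 2.39% and 5.56% were called in MINO at these times. The epithelial and stromal markers summed to 12.4 to 18.4 CPM in DMSO and 30.2 to 38.6 in GS716054 at 72 h, with PECAM1, which is also found on blood cells, called higher. Marker sums also differed in the other lines. In JEKO the B-cell markers summed to 4148 to 4410 CPM in DMSO and 2842 to 3521 in GS716054 at 24 h, and to 3733 to 4587 and 2695 to 3699 at 72 h, while in UPN-1 at 24 h they went from 4668 to 4836 CPM in DMSO to 4275 to 4550. The T-cell markers in JEKO at 72 h summed to 1.63 to 2.82 CPM in DMSO and 5.64 to 9.83 in GS716054. Their part in the values of MYC, MXD4 and the other members was not tested.

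Culture time alone moved several members in JEKO. From 24 h to 72 h in DMSO, MXD4 rose from 29.6, 23.7 and 27.7 to 97.1, 77.8 and 59.0 CPM (1.53, SE 0.19, adjusted p = 0.000511), and MXD1 rose from 4.20, 3.47 and 2.33 to 4.48, 8.69 and 6.95 (1.01, SE 0.31, adjusted p = 0.0235). MXD3 fell by 0.59 on the log2 scale (SE 0.21, adjusted p = 0.0443) and MLX fell by 0.48 (SE 0.16, adjusted p = 0.0352). In each of these 4 genes the libraries of the 2 times did not overlap. The count of 4 of 10 members stands beside 31.7% of all genes.
Only MXD4 kept its call whichever library was left out (adjusted p at most 0.00602). MXD1 lost it without replicate 2 or 3 at 24 h or replicate 2 at 72 h, MXD3 without any library but replicate 1 at 72 h, and MLX without any 1 of the 6 (adjusted p from 0.053 to 0.118). MYC did not pass (0.18, SE 0.15, adjusted p = 0.377).

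The targets changed with time in JEKO without a fall of MYC. Of the 40 activated genes 31 were called lower at 72 h and 3 higher. Of all 16690 tested genes 31.7% were called, 2443 lower and 2856 higher. The list had a median of -0.77 beside 0.05 over all genes. TXNIP (1.93, SE 0.39, adjusted p = 0.00345) and ARRDC4 (1.77, SE 0.28, adjusted p = 0.00109) were called higher. Of the 7 repressed genes, CDKN1A, CDKN1C and NDRG1 were called higher and none lower, beside the same 31.7% of all genes.
No member was called for time in MINO or UPN-1, where 0.0932% and 1.47% of all genes were called. MXD4 had 0.38 in both (adjusted p = 0.197 and 0.0826), with all 72 h libraries above those at 24 h. MYC in MINO had 0.47 (SE 0.13, adjusted p = 0.116), without overlap, and DESeq2 called it (adjusted p = 0.0185). The 40 activated genes had medians of -0.41 in MINO and -0.45 in UPN-1 beside 0.04 and 0.02 over all genes, with 0 called in MINO and HSPE1 alone, lower, in UPN-1 (-0.95, SE 0.22, adjusted p = 0.0475).

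The genes most like MYC were found over the 12 group means of log2 CPM, after each line's own mean was subtracted, among 8173 genes with a mean of at least 4. The highest Pearson r belonged to DDX55 (0.97), RHBDD3 (0.96), TAF1D (0.95), PNN (0.93) and LRP8 (0.93). The lowest belonged to SPIB (-0.97), ENSG00000261684 (-0.96), ARF5 (-0.95), NECAP2 (-0.95) and ADD1 (-0.95). The 12 points share 3 lines, and after the line means are removed most of the spread of MYC is that of the 4 MINO groups. SPIB, a B-cell factor of the ETS family, averaged 199.9 CPM in DMSO and 398 in GS716054 in MINO at 24 h, and 144 and 304 at 72 h, which is a description of how it was chosen. Among the members themselves, MXI1 had the highest r with MYC (0.49) and MAX the lowest (-0.65).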

How the data were processed

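RNA of 36 libraries was counted by the authors. Per the submitters' processing notes, HISAT2 2.2.1, HTSeq 0.13.5 and GRCh38 were used; strandedness, counting mode and annotation release are not given in the sources used here. The deposited values were whole-number counts per Ensembl gene, used as deposited. Reads in no feature (43.3% to 45.9% of all) and ambiguous reads (1.98% to 2.60%) were left out. Symbols, positions and exon lengths, with all annotated exons of a gene merged, came from GENCODE v44.

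edgeR 4.0.16 (R 4.3.3) was fitted to the 12 libraries of a line, with a coefficient per group (8 residual degrees of freedom), TMM and filterByExpr (minimum count 10, total 15), which kept 15028 genes for MINO, 15248 for UPN-1 and 16690 for JEKO. A fit of all 36 libraries (17980 genes) compared lines and their effects. SE is the absolute log2 fold change over the square root of F, and intervals are 95%. The functions were tested on simulated data. A count of 0 allows up to 3 counts, 0.200 to 0.341 CPM, which covers counting error only. P-values measure the spread between the replicates of cultured lines.

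Same-numbered DMSO and GS716054 libraries deviated together: the correlation of their deviations from the group means was over 0.1 for every pair in 5 of 6 comparisons (0.107 to 0.593) and not in JEKO at 24 h (0.131, 0.0552 and 0.213). Same-numbered pairs also correlated more than the best pair of unlike number, in JEKO at 24 h as well. The exception was replicate 3 of MINO at 72 h (0.287 against 0.332). DMSO libraries of the same number at 24 h and 72 h correlated weakly (-0.0655 to 0.169). In MINO each such pair correlated less than the best pair of unlike number, as did replicate 2 in UPN-1. In JEKO each correlated more, as did replicates 1 and 3 in UPN-1. Values with the replicate number as a block within each time, a fit chosen after the data were seen, are therefore printed beside the results they change. In JEKO at 24 h the value of MXD4 alone is printed.

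Members and gene lists were chosen with earlier results of these data known. From each further list, up to 4 called genes per direction and comparison were to be named, by size, and TXNIP, ARRDC4, PVT1, CASC11, MYCN, MYCL and MLXIPL were given whatever they showed; the 5 genes most and least like MYC were added. The alternatives were DESeq2 1.42.0, its size factors, no filter, a minimum count of 50, the block, other sets of libraries and leaving out each library.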

Additional observations from a re-analysis of the deposited data

Results flagged for a closer look

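The effect of GS716054 on MYC differed between lines by a test of the difference itself, in 4 of the 6 pairs of lines and times. At 24 h the log2 effect in MINO minus that in JEKO was -1.56 (adjusted p = 0.000905) and minus that in UPN-1 -1.46 (adjusted p = 0.00261). At 72 h the same differences were -1.82 (adjusted p = 2.32e-05) and -1.94 (adjusted p = 1.97e-05). In MINO all 3 treated libraries lay below all 3 DMSO libraries at each time. UPN-1 minus JEKO was -0.10 at 24 h and 0.12 at 72 h, with no call. No other member met this criterion.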

How the results depend on the processing

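MYC was called lower in MINO at both times, and MYC differed among lines at both times, under each alternative run. The counts of the 10 members called changed as follows. In JEKO at 24 h, 0 became 1 with no filter, with DESeq2 and with the replicate block within each time, and stayed 0 with the replicate block across times. In JEKO at 72 h, 0 became 1 with no filter, both blocks, all 36 libraries and DESeq2. The added call was MXD4 each time. In MINO, 2 became 1 without DMSO replicate 1 or GS716054 replicate 2 at 24 h (range 1 to 2) and 3 with the block within each time at both times, with only the 6 libraries at 24 h (MLX, adjusted p = 0.00677) and with no filter at 72 h (MXI1, 0.00644). In UPN-1, 0 became 1 with that block at 24 h. At 72 h in UPN-1, 1 became 4 with it and 0 with only the 6 libraries compared (adjusted p of MXD4 0.419) and with all 36 libraries (0.19), and the range over left-out libraries was 0 to 1.

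For the difference among lines, 1 became 2 with the replicate block at both times, 2 and 3 with the block within each time at 24 h and 72 h, 2 with no filter and with DESeq2 at 72 h, and 1 to 2 over left-out libraries at 72 h (2 without JEKO DMSO replicate 3 or MINO GS716054 replicate 1). For DMSO over time, JEKO went from 4 to 2 with a minimum count of 50 and to 1 to 3 over left-out libraries, and to 5 with no filter (MXI1, adjusted p = 0.0137), and its replicate block gave 6. MINO went from 0 to 3 with no filter, 4 with the block and 1 with DESeq2; UPN-1 from 0 to 1, 4 and 1, and to 0 to 3 over left-out libraries (3 without replicate 3 at 72 h). Over left-out libraries, MINO against JEKO, 2, ranged from 1 to 3 and UPN-1 against JEKO, 6, from 4 to 6. With no filter UPN-1 against JEKO gave 5 (MLXIP lost, adjusted p = 0.107) and UPN-1 against MINO went from 3 to 4 (MXI1, 0.0111).

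All genes called in MINO at 24 h went from 359 to 27 to 91 over left-out libraries, 994 with the block, 1053 with no filter, 903 with DESeq2 and 2557 with only the 6 libraries; at 72 h from 835 to 358 to 1518, 1536, 1492, 1439 and 101. In JEKO at 72 h 50 became 113 with the block, 557 with it within each time and 2 with 6 libraries; in UPN-1 at 72 h 51 became 223, 1139 and 6. Of 1500 log2 fold changes of members under alternatives, 81 changed sign, all without a call in either setting, and 0 of a called value did. A call was lost in 34 and gained in 38. The cause was not tested. With 3 libraries a group, effects of the size of MXD4 in JEKO and UPN-1 lay at the limit of what was called.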
